A study of Homo sapiens with 24 samples.

Results

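The alpha-arrestins TXNIP, ARRDC1, ARRDC2, ARRDC3 and ARRDC4 were followed across 2 human B-cell lymphoma lines exposed to a SYK inhibitor, a BET inhibitor or both. The 5 genes were taken by symbol from a table of 25161 symbols on 25575 rows, and each of them had 1 row. They were chosen by family membership with earlier fold changes of these data known, in which TXNIP and ARRDC3 were higher in DG-75 after BET inhibition. The DG-75 comparisons of AZD and Ento+AZD with DMSO, and of Ento+AZD with Ento, are therefore given as values without a p-value for any member. Their counts of calls stand below beside the share of all rows, and return in the closing section on processing. The line comparison under DMSO and the other DG-75 comparisons use some of these DG-75 arrays. TXNIP and ARRDC3 are therefore given no p-value there either.

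The data came from 24 whole-transcriptome arrays of the Clariom D human type, in 8 groups of 3 replicates numbered 1 to 3. SU-DHL-4 is an established line from a diffuse large B-cell lymphoma and DG-75 an established line from a Burkitt lymphoma, so that each lymphoma type is represented by 1 line and a difference between lines cannot be told apart from a difference between the lymphomas. Cells of each line were kept for 72 h with the solvent DMSO, with 1 µM Entospletinib (Ento), which inhibits the B-cell receptor-associated kinase SYK, with 0.01 µM AZD5153 (AZD), a bivalent inhibitor of BET bromodomain proteins, or with Ento+AZD at those doses. All values are taken to be on the log2 scale, which is what the normalization used returns although the log base was not stated, and on it a difference of 1 is a 2-fold difference. A gene was called when limma gave an adjusted p below 0.05, by Benjamini-Hochberg over all 25575 rows, and a change of more than 2-fold. Levels are compared between groups for the same gene and never between genes, since each gene has its own probes.

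Alpha-arrestins carry the arrestin fold, and in most members a tail with PPxY motifs through which they bring ubiquitin ligases of the NEDD4 family to membrane proteins. TXNIP, the thioredoxin-interacting protein, binds and inhibits thioredoxin and restrains glucose uptake by promoting the internalisation of glucose transporters. Its gene is a known target of the glucose-sensing factor MondoA, encoded by MLXIP, with its partner MLX, and ARRDC4 is a known target of the same pair. ARRDC3 is known as an adaptor in the trafficking of membrane receptors, and ARRDC1 for its part in budding of vesicles from the plasma membrane. In lymphocytes, TXNIP is known as a gene of resting cells that falls on activation.

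Promoter sequences of TXNIP, ARRDC3 and ARRDC4 are shown first, because these windows hold the forkhead and E-box motifs of the family. RefSeq windows were found for 5 of 5 members, 8 windows in all, because TXNIP, ARRDC2 and ARRDC3 each have 2 listed starts. Each sequence below covers the 250 bases before a start on GRCh38.p14, read 5′ to 3′ on the strand of the gene. Capitals mark matches on either strand to the forkhead box O (FOXO) core GTAAACA, to a paired E-box, 2 copies of CACGNG separated by 5 bases, of the kind known as a carbohydrate response element, to the palindromic E-box CACGTG and to the CCAAT box. No match of these 4 motifs overlapped another in the sequences shown.

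TXNIP, first start, chr1:145996580-145996829, minus strand: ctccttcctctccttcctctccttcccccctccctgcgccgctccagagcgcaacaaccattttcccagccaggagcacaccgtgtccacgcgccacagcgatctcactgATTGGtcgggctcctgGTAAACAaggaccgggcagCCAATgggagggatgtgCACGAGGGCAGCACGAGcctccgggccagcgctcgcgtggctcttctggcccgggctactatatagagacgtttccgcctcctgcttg

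ARRDC3, second start, chr5:91380098-91380347, minus strand: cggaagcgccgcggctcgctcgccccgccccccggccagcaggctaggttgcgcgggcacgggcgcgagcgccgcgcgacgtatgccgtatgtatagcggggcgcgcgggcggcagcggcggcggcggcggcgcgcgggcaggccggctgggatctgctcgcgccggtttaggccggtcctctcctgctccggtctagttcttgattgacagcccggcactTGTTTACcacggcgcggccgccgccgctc

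ARRDC4, chr15:97960453-97960702, plus strand: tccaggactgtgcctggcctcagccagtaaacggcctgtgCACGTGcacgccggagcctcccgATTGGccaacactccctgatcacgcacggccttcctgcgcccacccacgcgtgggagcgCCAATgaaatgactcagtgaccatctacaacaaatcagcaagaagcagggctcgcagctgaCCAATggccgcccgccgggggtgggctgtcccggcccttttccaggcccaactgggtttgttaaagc

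The window of TXNIP held the paired E-box as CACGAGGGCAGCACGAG, 88 to 72 bases before the start. Only 16 of the 35116 windows in the RefSeq table held this motif (0.0456%). The same window held the FOXO core 124 to 118 bases before the start, and that of ARRDC3 held it in reverse as TGTTTAC, 29 to 23 bases before its second start. The FOXO core was found in 2.98% of all windows, and among the members in these 2 windows alone. ARRDC4 held the palindromic E-box 210 to 205 bases before its start, which 6.34% of windows held, and 3 CCAAT boxes, a motif of 32% of windows. The motifs were chosen with these sequences in view. A match describes the letters of the window and not the binding of a factor, which was not measured here.

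The DMSO groups of the lines overlapped for TXNIP. Its 3 DMSO arrays read 9.88, 9.10 and 9.14 in SU-DHL-4, and 9.25, 9.17 and 9.30 in DG-75. The first SU-DHL-4 array stood above the other five, which lay between 9.10 and 9.30. The difference of the means was 0.14 (95% interval −0.32 to 0.59), and without the first SU-DHL-4 array it turned to −0.12.

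In DG-75, TXNIP was higher in every array with AZD than in any array without it, and about 2-fold higher by group means. The arrays read 10.39, 10.25 and 10.21 under AZD, and 10.53, 10.28 and 10.32 under Ento+AZD. Under Ento they read 9.17, 9.38 and 9.33, which overlapped the DMSO arrays. AZD was higher than DMSO by 1.05 (SE 0.13, 2.06-fold), Ento+AZD was higher than DMSO by 1.14 (SE 0.13, 2.21-fold), and Ento+AZD was higher than Ento by 1.09 (SE 0.13, 2.12-fold). AZD and Ento+AZD share their DMSO arrays. Of all rows, 4.5% lay above DMSO without overlap under AZD and 4.79% under Ento+AZD, and 4.65% lay higher under Ento+AZD than under Ento. Adding Ento gave a difference of 0.06 on DMSO (95% interval −0.24 to 0.35) and of 0.10 on AZD (95% interval −0.20 to 0.39). Both use arrays through which TXNIP was known and are given no p-value.

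In SU-DHL-4, no change of TXNIP was detected under any treatment. The arrays read 9.28, 9.01 and 9.07 under Ento, 9.09, 9.28 and 9.46 under AZD, and 9.40, 9.59 and 9.16 under Ento+AZD. All 3 treatment groups overlapped the DMSO group. The differences from DMSO were −0.25 for Ento (95% interval −0.70 to 0.20), −0.09 for AZD (−0.54 to 0.35) and 0.01 for Ento+AZD (−0.44 to 0.46), with limma adjusted p of 0.778, 0.911 and 0.992. The upper limits of these intervals lay below a 2-fold rise. The first DMSO array, the highest of the 12 for TXNIP in this line, weighs on these values, and without it they were 0.00, 0.16 and 0.26. The SU-DHL-4 response minus the DG-75 response was −1.14 (SE 0.25) for AZD and −1.13 (SE 0.25) for Ento+AZD, given without a test since it uses the DG-75 values above. Without the first SU-DHL-4 DMSO array these differences were −0.88 and −0.88.

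Across the 8 groups, the order of TXNIP therefore had a single gap. DG-75 under Ento+AZD (10.38 ± 0.13, SD, n = 3) and DG-75 under AZD (10.28 ± 0.10) were at the top and overlapped. A gap of 0.90 separated them from the other 6 groups, whose means ran from 9.38 down to 9.12 and whose neighbours all overlapped.

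**Figure D1:**
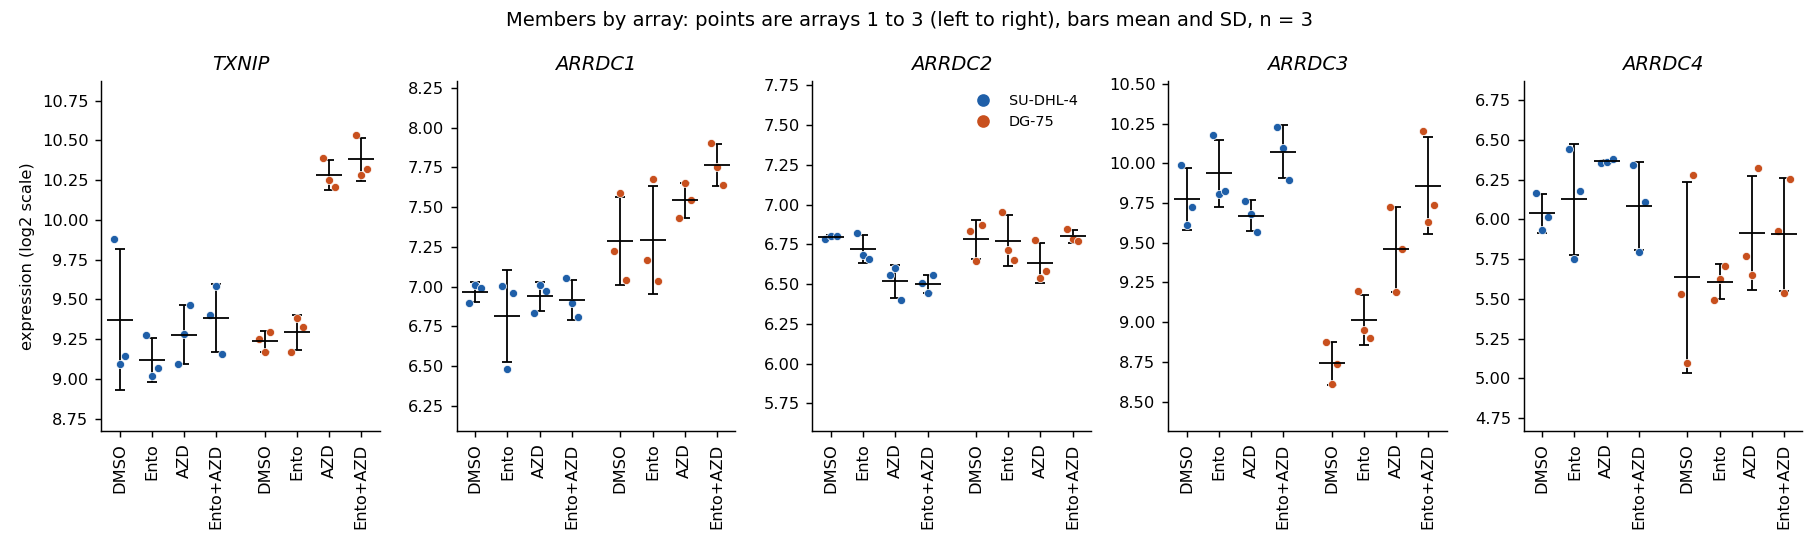
Expression of the 5 alpha-arrestin genes on the log2 scale, as deposited, in each array of SU-DHL-4 (blue) and DG-75 (orange) under DMSO, Ento, AZD and Ento+AZD; points are arrays 1 to 3 from left to right, bars the mean and SD (n = 3), and every panel spans the same number of log2 units. TXNIP in DG-75 lies between 10.21 and 10.53 with AZD and between 9.17 and 9.38 without it, while the DG-75 means of ARRDC3 run from 8.74 under DMSO to 9.86 under Ento+AZD.

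The DMSO level of ARRDC3 in SU-DHL-4 was about 2-fold that of DG-75 by group means. Under DMSO it read 9.99, 9.61 and 9.73 in SU-DHL-4 and 8.88, 8.61 and 8.74 in DG-75. The groups did not overlap, as was so for 33.3% of all rows in this comparison. The difference was 1.03 (SE 0.16, 2.05-fold). ARRDC3 alone of the 5 members met the rule for a call here, as 7.25% of all rows did, and nothing is read from it. With single arrays or replicate numbers left out the difference ran from 0.93 to 1.12, and it fell under the 2-fold minimum without the first SU-DHL-4 DMSO array, without the second DG-75 DMSO array and without replicate 1 of both lines.

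In DG-75, the mean of ARRDC3 stood higher at each step from DMSO through Ento and AZD to Ento+AZD. It read 9.19, 8.95 and 8.90 under Ento, 9.72, 9.19 and 9.46 under AZD, and 10.21, 9.63 and 9.73 under Ento+AZD. Each treated group lay above the DMSO group without overlap, as did 3.09% of all rows under Ento, 4.5% under AZD and 4.79% under the combination, while AZD overlapped Ento+AZD and Ento overlapped AZD. The differences from DMSO were 0.72 (SE 0.13, 1.64-fold) for AZD and 1.12 (SE 0.13, 2.17-fold) for Ento+AZD, and Ento+AZD exceeded Ento by 0.84 (SE 0.13, 1.80-fold). Under Ento+AZD the DG-75 mean of 9.86 ± 0.31 (SD, n = 3) lay between the SU-DHL-4 means under DMSO (9.77 ± 0.19) and under Ento (9.94 ± 0.21).

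In SU-DHL-4, the differences of ARRDC3 from DMSO were smaller. The arrays read 10.18, 9.81 and 9.82 under Ento, 9.76, 9.68 and 9.57 under AZD, and 10.23, 10.09 and 9.89 under Ento+AZD. Each of these groups overlapped DMSO, and Ento+AZD lay above AZD without overlap, as 4.15% of all rows did. The differences from DMSO were 0.16 for Ento (95% interval −0.14 to 0.46), −0.10 for AZD (−0.40 to 0.19) and 0.30 for Ento+AZD (−0.00 to 0.59), with limma adjusted p of 0.789, 0.834 and 0.36. The SU-DHL-4 response minus the DG-75 response was −0.82 (SE 0.17) for AZD and −0.82 (SE 0.17) for Ento+AZD, again given without a test.

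With Ento added, ARRDC3 was higher in both lines by less than 1.5-fold, and in SU-DHL-4 the adjusted test was not passed. Of the 12 differences between same-numbered arrays, Ento against DMSO and Ento+AZD against AZD in both lines, 12 were above 0, from 0.10 to 0.48. All 12 were above 0 for 56 of the 25575 rows (0.219%), and of one sign in either direction for 91 rows (0.356%). After subtraction of the median of each array all 12 were above 0 for 112 rows (0.438%). ARRDC3 was again among them, with differences from 0.21 to 0.51. The fitted differences were 0.16 and 0.40 in SU-DHL-4 and 0.27 and 0.40 in DG-75, on DMSO and on AZD in turn. In SU-DHL-4 unadjusted p was 0.261 and 0.0124, and neither passed limma's adjustment over all rows (adjusted p = 0.789 and 0.596). The DG-75 differences use arrays through which the family was known and are given no p-value. The count of 12 was looked at after the values of ARRDC3 were seen, so it is a description only and supports no effect of Ento. For TXNIP 7 of the 12 differences were above 0, for ARRDC1 6, for ARRDC2 7 and for ARRDC4 4. With AZD added in place of Ento, 10 of 12 differences of ARRDC3 were above 0, reaching 1.013, and 11 of 12 of TXNIP.

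**Figure D2:**
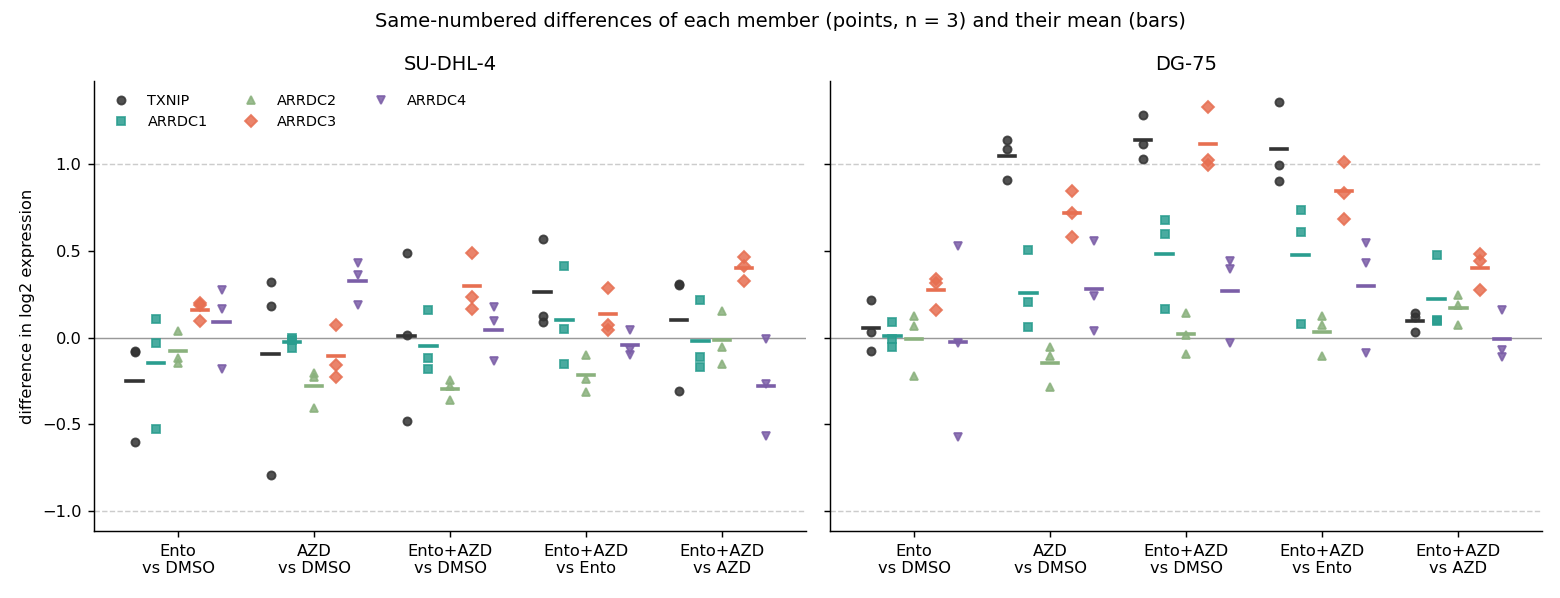
Differences in log2 expression between same-numbered arrays (points, n = 3) for the 5 members in 5 comparisons in SU-DHL-4 and DG-75, with the mean difference as a bar; dashed lines mark 2-fold changes. In DG-75, TXNIP exceeds 0.9 in all 9 differences that add AZD, while in SU-DHL-4 its differences against DMSO spread from −0.79 to 0.49.

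ARRDC1, the member linked to vesicle budding, was flat in SU-DHL-4, where its group means ran from 6.82 to 6.97. In DG-75 its arrays read 7.22, 7.59 and 7.04 under DMSO, 7.17, 7.68 and 7.04 under Ento, 7.43, 7.65 and 7.55 under AZD, and 7.90, 7.75 and 7.64 under Ento+AZD. Under Ento+AZD all arrays lay above those under DMSO, as did 4.79% of all rows in that comparison. The difference from DMSO was 0.26 (SE 0.16) for AZD and 0.48 (SE 0.16, 1.40-fold) for Ento+AZD. Between the DMSO groups ARRDC1 did not overlap, as 33.3% of all rows did not, and the difference of SU-DHL-4 from DG-75 was −0.32, which missed the limma test (adjusted p = 0.253). With arrays left out it ran from −0.45 to −0.17.

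ARRDC2, a less studied member, lay lower in the SU-DHL-4 arrays with AZD than in the DMSO arrays. Its arrays read 6.78, 6.80 and 6.80 under DMSO, 6.82, 6.68 and 6.66 under Ento, 6.56, 6.60 and 6.40 under AZD, and 6.50, 6.45 and 6.56 under Ento+AZD. AZD and Ento+AZD lay below DMSO without overlap, where 15.7% and 20.8% of all rows did not overlap in either direction. The differences were −0.28 (SE 0.13) and −0.29 (SE 0.13), with unadjusted p of 0.0598 and 0.0484 and limma adjusted p of 0.458 and 0.352. With arrays left out or another scaling the difference under AZD ran from −0.33 to −0.12. In DG-75, the ARRDC2 group means lay between 6.63 and 6.80.

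ARRDC4, which like TXNIP is known as a glucose-regulated gene, showed no separation of the DG-75 groups. Its DG-75 arrays read 5.53, 5.10 and 6.28 under DMSO, 5.49, 5.63 and 5.71 under Ento, 5.77, 5.65 and 6.32 under AZD, and 5.93, 5.54 and 6.25 under Ento+AZD. All 4 groups overlapped and the DMSO arrays alone spread over more than a 2-fold range, the widest replicate spread of the family (SD 0.60). In SU-DHL-4 the AZD arrays read 6.36, 6.36 and 6.38, above the DMSO arrays at 6.17, 5.93 and 6.01, as were 2.82% of all rows without overlap. That difference of 0.33 (95% interval −0.01 to 0.67) had an unadjusted p of 0.0571 and a limma adjusted p of 0.453, and ran from 0.20 to 0.45 with arrays left out. Ento+AZD, at 6.35, 5.80 and 6.11, lay below AZD without overlap (difference −0.28, adjusted p = 0.77), where 9.18% of all rows did not overlap in either direction. With arrays left out this difference ran from −0.42 to −0.14.

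Counted over the family, 0 of the 5 members were called in SU-DHL-4 in any of the 5 comparisons, where the share of all rows called was 0.0508% for Ento, 0.18% for AZD, 1.19% for Ento+AZD, 0.0821% for Ento+AZD against Ento and 0.0274% for Ento+AZD against AZD. At an unadjusted p below 0.05, limma gave ARRDC2 under Ento+AZD, with 3584 of the 25575 rows, and ARRDC3 for Ento+AZD against AZD, with 1798 rows. In DG-75, 0 members were called for Ento against DMSO (0.00391% of all rows) and for Ento+AZD against AZD (0% of all rows). The counts for the DG-75 comparisons through which the family was known were 1 member for AZD (TXNIP, 0.18% of all rows), 2 for Ento+AZD (TXNIP and ARRDC3, 0.833%) and 1 for Ento+AZD against Ento (TXNIP, 0.657%), and nothing is read from them. With arrays left out these counts ran from 0 to 0, from 0 to 2 and from 0 to 1. The second was 0 without the first DMSO array, the first Ento+AZD array or any replicate number. The response to Ento in SU-DHL-4 minus that in DG-75 gave 0 calls among the members (0.00782% of all rows). No member departed by a call from the sum of the single agents under the combination, nor did any row (0% in both lines). In SU-DHL-4 the departures ran from −0.37 for ARRDC4 to 0.36 for TXNIP. Limma adjusted p was at least 0.960 there, with 0 members under an unadjusted p of 0.05. Departures in DG-75 ran from 0.02 for ARRDC4 to 0.22 for ARRDC1. They use the arrays through which the family was known and are given no p-value. With arrays left out the departure of TXNIP in SU-DHL-4 ran from 0.08 to 0.65, and it was 0.10 without the first DMSO array. Their intervals were wide, reaching from −0.28 to 0.99 for TXNIP in SU-DHL-4.

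Over the 24 arrays, with the mean of each line removed, TXNIP and ARRDC3 had a Pearson correlation of 0.80. It was 0.89 over the 12 DG-75 arrays, which fall into a group with and a group without AZD, and 0.39 over the 12 SU-DHL-4 arrays. TXNIP and ARRDC1 had 0.60, and the other pairs between −0.17 and 0.50. The arrays share their treatments, so that these values describe a shared pattern over the groups and carry no test.

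**Figure D3:**
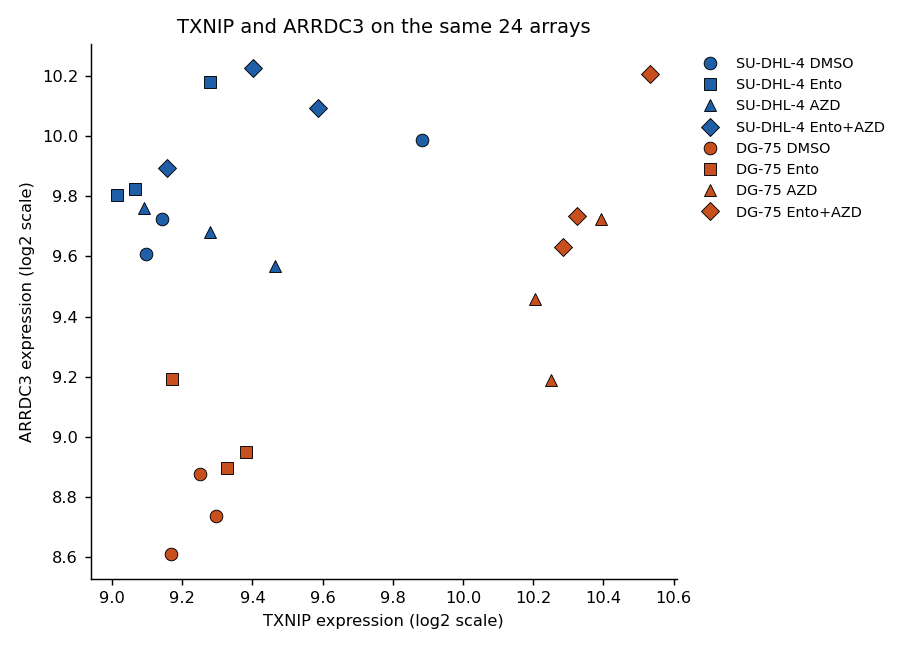
Expression of ARRDC3 against TXNIP on the log2 scale in the 24 arrays; colour gives the line and shape the treatment. The 6 DG-75 arrays with AZD stand at 10.2 or higher in TXNIP, and the SU-DHL-4 arrays stay above 9.5 in ARRDC3 under every treatment.

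Among 12608 genes with a mean above the median, the 5 whose pattern was most like that of TXNIP by this correlation were SESN3 (0.85), TMEM44-AS1 (0.84), UCP2 (0.84), BTG2 (0.84) and MXD4 (0.81). SESN3 encodes a sestrin, UCP2 a mitochondrial carrier, BTG2 an antiproliferative protein and MXD4 a member of the MAX dimerization family. In DG-75 under AZD they were higher than under DMSO by 1.38, 0.71, 0.90, 1.09 and 0.92 in that order. In SU-DHL-4 the differences were 0.05, 0.08, 0.25, 0.07 and 0.13 under AZD, and 0.52, 0.37, 0.53, 0.02 and 0.41 under Ento+AZD, where that of TXNIP was 0.01. None of these SU-DHL-4 differences passed limma's adjustment over all rows. The likeness to TXNIP within that line was between 0.20 for UCP2 and 0.63 for SESN3. For ARRDC3 the 5 were STK17A (0.87), TMEM44-AS1 (0.87), CHMP7 (0.86), TSPYL1 (0.86) and TINF2 (0.85), which in SU-DHL-4 alone had 0.46, 0.66, 0.43, 0.61 and 0.28. TMEM44-AS1, an antisense transcript, was on both lists. The antisense gene ARRDC3-AS1 was higher than DMSO by 0.71 under Ento+AZD in SU-DHL-4 (SE 0.17, limma adjusted p = 0.0528) and by 0.17 in DG-75 (SE 0.18, adjusted p = 0.717), beside 0.30 and 1.12 for ARRDC3. The strand of the probes was not given in the sources used here.

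Genes that work with the alpha-arrestins were read from lists, which were compiled with earlier results known. None of 3 glucose-sensing factors was called in any treatment comparison, where from 0% to 1.19% of all rows were. MLXIP was at 5.87 ± 0.29 (SD, n = 3) under DMSO in DG-75, 5.95 ± 0.09 under AZD and 6.04 ± 0.19 under Ento+AZD, and the 3 groups overlapped. The differences of MLX from DMSO in DG-75 were −0.01 and −0.00 (limma adjusted p = 0.994 and 0.998). MLXIPL, the third, read 5.66, 5.40 and 5.58 under DMSO and 5.88, 5.88 and 5.77 under AZD in DG-75, above without overlap as 4.5% of all rows were, a difference of 0.30 (SE 0.17, adjusted p = 0.491), and −0.07 under Ento+AZD (adjusted p = 0.907).

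Among 15 genes of the thioredoxin system, 14 were below DMSO in DG-75 under AZD and 14 under Ento+AZD, with medians of −0.17 and −0.27 against −0.06 and −0.07 for all rows, and 0 were called, where 0.18% and 0.833% of all rows were. At an unadjusted p of 0.05 there were 4 and 6, beside 3537 and 4096 of the 25575 rows. After subtraction of array medians 13 were below 0 under each treatment. In SU-DHL-4 under Ento+AZD 13 of the 15 were below DMSO (median −0.16 against −0.08), with 5 under an unadjusted p of 0.05, and after that subtraction 9 were (median −0.03). TXN, the thioredoxin that TXNIP binds, read 11.04, 10.79 and 10.79 under DMSO, 10.31, 10.54 and 10.41 under AZD, and 10.18, 10.34 and 10.44 under Ento+AZD in DG-75. Both treated groups lay below DMSO without overlap, where 19.1% and 18.8% of all rows did not overlap in either direction. The differences of −0.45 and −0.55 (SE 0.14 each) missed the limma threshold (adjusted p = 0.172 and 0.0687). In SU-DHL-4 TXN was lower by 0.35 on the log2 scale under Ento+AZD (adjusted p = 0.276).

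Of 21 genes of glycolysis and glucose uptake, all 21 were below DMSO in SU-DHL-4 under Ento+AZD, with a median of −0.39 against −0.08 for all rows. TXNIP differed by 0.01 in that comparison, and a link between it and these genes was not tested. After subtraction of array medians 17 were below 0 and the median was −0.26 against 0.05. Of these 21, 1 was called, where 1.19% of all rows were, and 12 were under an unadjusted p of 0.05, as were 3584 of the 25575 rows. The called gene was PFKFB4, which encodes a regulator of glycolytic flux, at −1.40 (SE 0.28, limma adjusted p = 0.0225). Its DMSO arrays had a mean of 6.65 ± 0.91 (SD, n = 3), with the second at 6.26 and the third at 7.69. All lay above the Ento+AZD arrays at 5.23, 5.09 and 5.44, where 20.8% of all rows did not overlap in either direction. The call was lost in 5 of 6 fits with 1 array left out, and with no replicate block (adjusted p = 0.21). Against Ento and against AZD, comparisons that share these Ento+AZD arrays, 21 and 21 were below 0, with medians of −0.31 and −0.39 beside −0.02 and −0.01 for all rows. None was called in either, and 5 and 13 were under an unadjusted p of 0.05, as were 2474 and 1798 of the 25575 rows.

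In DG-75, 18 of the 21 glycolysis genes were below DMSO under AZD (median −0.32) and 18 under Ento+AZD (median −0.29), against medians of −0.06 and −0.07 for all rows. In SU-DHL-4 under AZD 13 were below it, with a median of −0.06 beside −0.08 for all rows, and this turned with array medians subtracted, when 6 were below 0 and the median was 0.06 against 0.04. The same scaling left 16 and 18 below 0 in DG-75. No gene was called by the full rule in DG-75, and 0 and 2 passed the adjusted p alone, as did 0.293% and 2.39% of all rows. The 2 were HK2, a hexokinase, and PGK1, phosphoglycerate kinase. HK2 read 7.58, 7.76 and 7.12 under DMSO and 6.74, 6.42 and 6.58 under Ento+AZD, a difference of −0.91 (SE 0.20, limma adjusted p = 0.0393). PGK1 differed by −0.63 (SE 0.14, adjusted p = 0.0475). The SU-DHL-4 response minus the DG-75 response to AZD was above 0 for 17 of the 21 glycolysis genes (median 0.19) and for 12 of the 15 thioredoxin genes (median 0.16), against −0.01 for all rows. For Ento+AZD it was above 0 for 10 of 21 (median −0.02) and 10 of 15 (median 0.10), against −0.01. No gene of either list was called in these line differences, where 0% and 0.0352% of all rows were, and the lists as wholes were given no test.

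**Figure D4:**
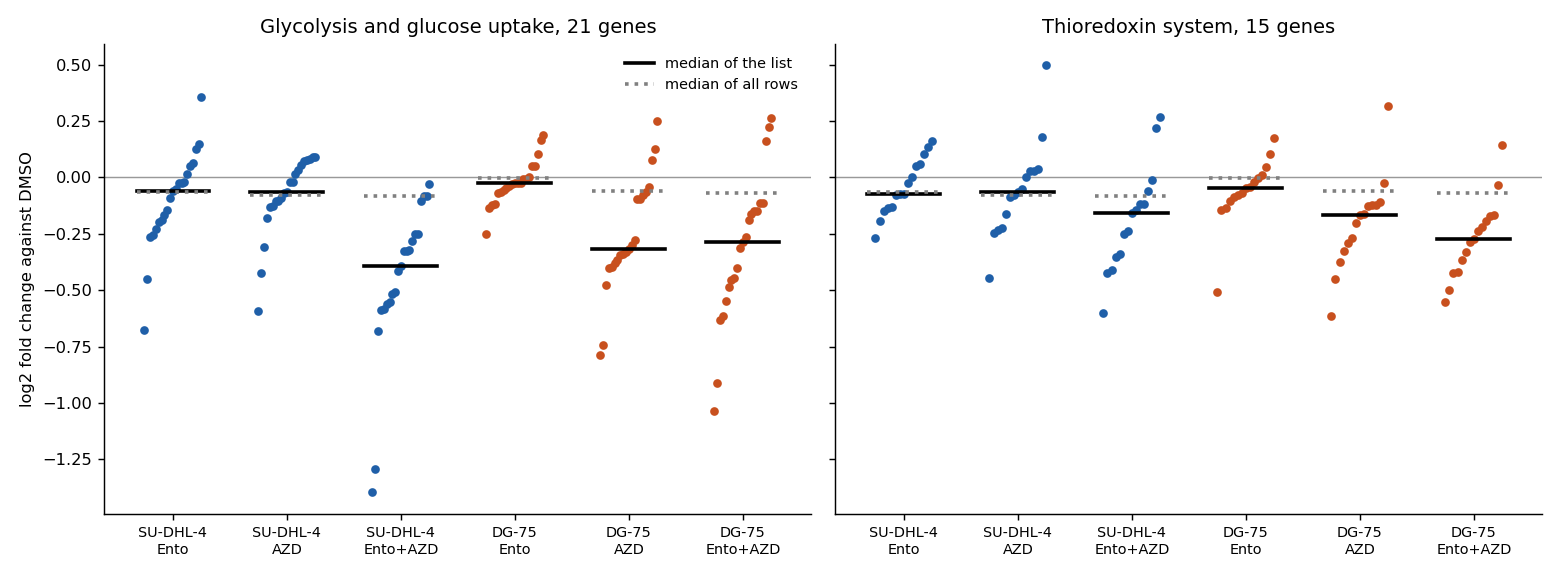
Log2 fold changes against DMSO of 21 genes of glycolysis and glucose uptake and of 15 genes of the thioredoxin system (points, ordered by value) under Ento, AZD and Ento+AZD in SU-DHL-4 (blue) and DG-75 (orange); solid bars are the median of the list and dotted bars that of all rows. The glycolysis median is −0.39 under Ento+AZD in SU-DHL-4, and −0.32 and −0.29 under AZD and Ento+AZD in DG-75.

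Of 11 genes of the NEDD4 ligase family and its adaptors, 3 were called lower in the SU-DHL-4 DMSO arrays than in those of DG-75 and 0 higher, where 7.25% of all rows were called, 1055 lower and 798 higher. By sign 7 of the 11 were below 0 and 4 above, with a median of −0.14 against 0.01 for all rows. NDFIP1, an adaptor and activator of these ligases, read 6.27, 6.24 and 6.20 in SU-DHL-4 and 8.77, 8.76 and 8.51 in DG-75 (difference −2.45, SE 0.15, limma adjusted p = 6.93e-07). The ligase NEDD4 read 3.61, 3.62 and 3.96 against 5.84, 5.06 and 5.56 (−1.76, SE 0.21, adjusted p = 0.000133). Its SU-DHL-4 values lay below the median of all row means (5.05), and without detection calls its expression there cannot be judged. The ligase WWP1 read 6.91, 7.03 and 7.13 against 8.66, 7.78 and 8.45 (−1.27, SE 0.22, adjusted p = 0.00178). The groups did not overlap for any of the 3, as for 33.3% of all rows, and each gene remained called in 6 of 6 fits with 1 array left out.

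Of 7 inflammasome genes, which were listed because TXNIP is known to bind NLRP3, IL18 alone was called between the DMSO arrays of the lines. It was lower in SU-DHL-4 by 2.37 (SE 0.20, limma adjusted p = 1.02e-05), where 7.25% of all rows were called. Of the 7 genes, 3 had an adjusted p below 0.05, as did 16.7% of all rows. None of the 8 other genes with an arrestin fold was called in this comparison, 2 being under an unadjusted p of 0.05, as were 7277 of the 25575 rows. In the treatment comparisons, no gene of the ligase, inflammasome, glucose-sensing and other arrestin-fold lists was called in either line. The share of all rows called there ran from 0% to 1.19%. In DG-75, 9 of the 11 ligase and adaptor genes were below DMSO under AZD (median −0.21 against −0.06 for all rows) and 9 under Ento+AZD (−0.13 against −0.07), with 4 and 4 under an unadjusted p of 0.05 beside 3537 and 4096 rows. NEDD4 read 4.23, 4.88 and 4.18 under AZD there, below its DMSO arrays without overlap, and 4.85, 4.07 and 5.16 under Ento+AZD, which overlapped them. The differences were −1.05 (SE 0.40, adjusted p = 0.26) and −0.79 (SE 0.40, adjusted p = 0.364), where 19.1% of all rows did not overlap under AZD. In all other cases between 0 and 2 genes of a list were under an unadjusted p of 0.05.

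**Figure D5:**
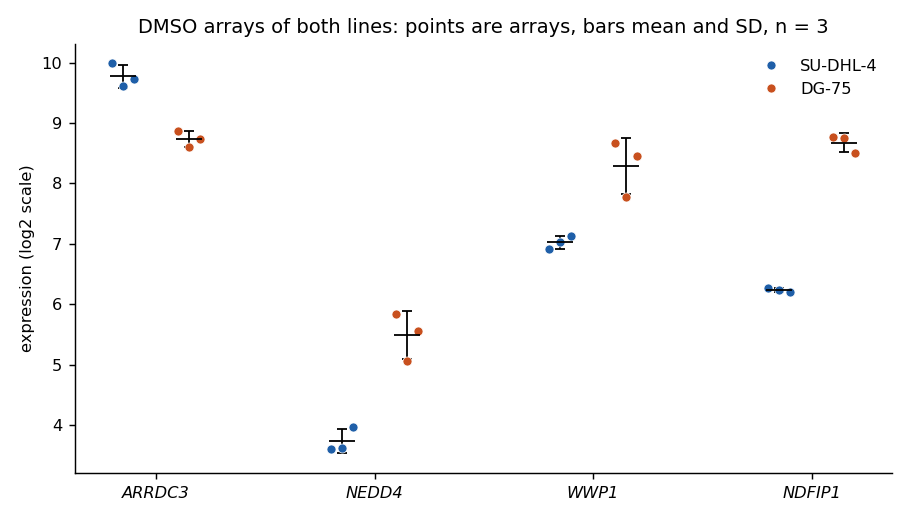
Expression on the log2 scale of ARRDC3, the ligase genes NEDD4 and WWP1 and the adaptor gene NDFIP1 in the DMSO arrays of SU-DHL-4 (blue) and DG-75 (orange); points are arrays and bars the mean and SD (n = 3). ARRDC3 is higher in SU-DHL-4 (difference 1.03) and the other 3 genes are lower (differences −1.76, −1.27 and −2.45 in the order plotted), each without overlap; levels are compared within a gene only.

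Markers of the labelled cell type can only be described, since the values carry no detection calls and each gene has its own probes. Over all arrays the B-cell marker CD79A was listed at 11.2 to 12.4 and PAX5 at 7.90 to 8.88, and MS4A1 at 11.3 to 11.8 in SU-DHL-4 and 6.22 to 7.995 in DG-75. The T-cell marker CD3E was listed at 3.37 to 4.72 and the myeloid marker LYZ at 1.91 to 3.33. DCN, 1 of 3 stromal markers read, was listed at 8.49 to 9.90 in SU-DHL-4 and at 4.31 to 5.41 in DG-75, while COL1A1 and COL3A1 stayed between 5.16 and 6.25 in both lines; the part of DCN in the line difference of ARRDC3 was not tested. Array medians lay between 4.89 and 5.14, replicates correlated at 0.981 to 0.992, and no pair of arrays was identical. Since arrays give no count of molecules, the number of arrays limits the precision, and in cultured bulk samples fewer cells of a type and less RNA per cell cannot be told apart.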

How the data were processed

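Expression was measured on 24 arrays, 3 per group, and groups were taken from the sample titles. The authors normalized the arrays by robust multi-array average (RMA) with limma, which subtracts background, equalizes arrays and summarises probes, and mapped transcript clusters to symbols with affycoretools. The deposited table holds these values per symbol, without detection calls. The deposited values were read as log2, the usual output of RMA, since the log base was not stated. Its genome build and annotation version were not given in the sources used here, and coordinates come from RefSeq on GRCh38.p14. Equalizing arrays can hide a shift shared by most genes. No column was left unused.

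From these values, limma 3.58.1 in R 4.3.3 was fitted to all 25575 rows, per line with 4 treatments and the replicate number as a block, following the batch term of the authors' model, for line differences in response over all 24 arrays, and over the 6 DMSO arrays for the line comparison. P-values are moderated and two-sided. Named genes were the members, the genes of each list that were called or had the smallest p, MLXIP, MLX and TXN, and the 5 most correlated with TXNIP and with ARRDC3. Levels named beyond that rule (COL1A1, COL3A1, DCN, ARRDC3-AS1) were chosen after their values were seen. CD79A, PAX5, MS4A1, CD3E and LYZ came from separate lists of cell-type markers, of which not every gene is printed. The members and lists were chosen with earlier results of these data known. A list of alpha-arrestin cargo genes is not reported here. The fits were first tested on simulated data. Alternatives were other scalings, filters, fits and arrays left out. The labels only number the replicates. The methods speak in general of biologically independent samples, and where arrays of a group came from shared cultures the p-values would measure technical spread.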

Additional observations from a re-analysis of the deposited data

How the results depend on the processing

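Over 16 comparisons, 278 of 308 alternative counts of called members were the same as reported, and 0 called fold changes reversed. Uncalled differences near 0, such as TXNIP in SU-DHL-4, took either sign. For DG-75 AZD against DMSO the count of 1 became 0 in the fit of those treatments alone and with array medians subtracted, and was 0 to 0 with arrays left out. For DG-75 Ento+AZD against DMSO the count of 2 ranged from 0 to 2 with arrays left out, 0 without the first DMSO array, the first Ento+AZD array or any replicate number. For DG-75 Ento+AZD against Ento the count of 1 became 0 in the fit of those treatments alone and 2 with quantile normalization or no fold minimum, and was 0 to 1 with arrays left out. For the response to Ento+AZD, SU-DHL-4 minus DG-75, the count of 0 became 1 (TXNIP) with trend and robust settings. These DG-75 counts rest on the values through which the family was chosen and are no test of it. For the DMSO arrays, the count of 1 was 0 to 1 with arrays left out. The causes were not tested, except that fewer arrays leave fewer degrees of freedom.

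Without the replicate block all counts of members were the same (0 in every SU-DHL-4 comparison, and 1, 2 and 1 in the DG-75 comparisons above). What a number shares is not stated in the labels, and it entered the fit as a block after the batch term of the study. Deviations of same-numbered arrays correlated at -0.11 to 0.39 in SU-DHL-4 (median 0.15, 12 of 18 pairs over 0.1, against -0.07 and 1 of 36 for different numbers) and at -0.35 to 0.34 in DG-75 (median 0.04, 7 of 18, against -0.01 and 11 of 36). Not every pair was over 0.1, so pairing was not established, and the same-numbered differences of the report rest on the number alone. With array medians subtracted, the median difference over all SU-DHL-4 rows shifted by 0.12 (Ento), 0.12 (AZD) and 0.13 (Ento+AZD), and small differences in that line are relative to it. Signal over background was not in the values used, which limits what can be said of low levels.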
